A study of Mus musculus with 11 samples.

Results

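The genes described here encode the calcium-activated phosphatase calcineurin, the NFAT transcription factors that it switches on, and proteins that hold it in check. They are 10 rows of a deposited table of read counts with 32469 gene symbols. Ppp3ca, Ppp3cb and Ppp3cc encode the catalytic subunits, Ppp3r1 the regulatory subunit, Nfatc1, Nfatc2 and Nfatc3 the NFAT factors, and Rcan1, Rcan3 and Cabin1 inhibitors of calcineurin. They were chosen by symbol, after Ppp3cc had shown the smallest unadjusted p in an earlier likelihood ratio test of the same groups. Differences of these genes between the groups are therefore given as a description and not as a test of their own.

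The counts came from bulk RNA-seq of T cells sorted from subcutaneous Lewis lung carcinoma tumors, which grow from a transplanted lung carcinoma cell line, on both flanks of wild-type C57BL/6 mice. The untreated group held 5 mice and the anti-LAG-3 group, called aLAG3 in the labels, held 6, with a library per mouse. The aLAG3 mice received 200 µg of clone C9B7W, an antibody against the inhibitory receptor LAG-3, into the peritoneum on days 14 and 16 of tumor growth, and the other mice are labelled untreated. The labels give days 14 and 21 for tumor excision, whereas the study's methods give an earlier last day for this experiment. All mice carried tumors, no tumor-free control was part of the comparison, and by the methods the mice were females of 8 weeks. By the study's methods the sorted cells were a subset of the CD8+PD-1+Ly108+TIM-3- gate, the precursor exhausted cells that renew the exhausted T cell pool. The comparison asked what LAG-3 blockade does to the RNA of these cells.

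Calcineurin is a phosphatase made of a catalytic and a regulatory subunit, and calcium-loaded calmodulin turns it on. When the T cell receptor binds its antigen, calcium stores empty, STIM sensors open ORAI channels, calcium flows in, and active calcineurin strips phosphates from NFAT proteins. These then enter the nucleus and switch on cytokine, receptor and feedback genes until kinases send them out again. NFAT acting without its usual partner AP-1 is known for driving inhibitory receptor genes in exhausted T cells, and the drugs cyclosporin and tacrolimus act by blocking calcineurin.

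Rcan1 is the classic feedback inhibitor of this pathway. It is transcribed from a distal promoter and from an internal one that NFAT factors are known to bind. Both RefSeq windows, each 250 bases long and ending just before the start site on the minus strand of GRCm38.p6, are shown because this gene, a common readout of calcineurin activity, was hardly read in these cells. Capitals mark GGAAA, the core that NFAT factors recognise, with its reverse complement TTTCC, and GGGCGG, the GC box bound by Sp factors, with its reverse complement CCGCCC. The internal window lies at chr16:92400079-92400328 and the distal window at chr16:92466170-92466419.
Rcan1 internal promoter: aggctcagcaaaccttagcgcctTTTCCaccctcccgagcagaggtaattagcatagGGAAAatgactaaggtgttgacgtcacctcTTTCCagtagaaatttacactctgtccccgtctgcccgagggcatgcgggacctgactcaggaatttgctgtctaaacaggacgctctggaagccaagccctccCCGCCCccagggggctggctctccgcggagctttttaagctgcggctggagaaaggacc
Rcan1 distal promoter: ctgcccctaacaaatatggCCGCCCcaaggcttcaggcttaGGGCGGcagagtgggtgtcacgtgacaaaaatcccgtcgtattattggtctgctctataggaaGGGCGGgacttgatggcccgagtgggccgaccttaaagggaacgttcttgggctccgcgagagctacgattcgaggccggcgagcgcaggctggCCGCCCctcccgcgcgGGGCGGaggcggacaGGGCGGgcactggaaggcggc
The internal window held 3 GGAAA cores and 1 GC box, and the distal window held 0 GGAAA cores and 6 GC boxes. Of the 32851 promoter windows of this length in the RefSeq table, 55.6% held a GGAAA core and 32.7% a GC box on either strand, so such short motifs are common and their presence describes the letters and no binding.

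The untreated libraries held 317449 to 1271063 counts (median 566144) and the aLAG3 libraries 313524 to 1901374 (median 648675.5). Levels are given in CPM, counts scaled to the depth of the library, with TMM factors, which set aside genes that stand out between libraries. A count of 3, used as the floor below which a level was not read, corresponded to between 1.58 and 9.57 CPM, and since PCR reads carried no molecular identifiers all such limits cover counting error only. Depth differed with the primer barcode in the titles: barcode 9 marked 3 untreated and 3 aLAG3 libraries, barcode 8 marked 1 untreated and 3 aLAG3 libraries, and barcode 10 marked 1 untreated library. The 6 CD8 T cell markers summed to between 4846 and 5141 CPM in the untreated and between 4880 and 5388 CPM in the aLAG3 libraries. Of the other cell types, myeloid markers summed to 47.6 to 75.6 CPM in the untreated and 46.1 to 105 CPM in the aLAG3 libraries, and B cell markers to 6.30 to 19.4 and 0 to 25.5 CPM. NK cell markers summed to 12.4 to 36.2 and 15.3 to 26.6 CPM, with Klra8 at 0 in every library, CD4 and regulatory T cell markers to 1.77 to 19.6 and 7.21 to 24.4 CPM, and red blood cell markers to 0 to 1.57 and 0 to 12.8 CPM, with Alas2 at 0. Tumor and stromal markers summed to 140 to 203 and 153 to 214 CPM, nearly all from Pecam1, an adhesion molecule that T cells also carry. Havcr2, which encodes the TIM-3 excluded by the gate, had 0 to 7 counts in a library. Slamf6, which encodes the Ly108 required by the gate, had 26 to 188 counts.

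Among the 7 of the 10 genes that passed the filter on low counts, the largest difference between the groups was that of Ppp3cc. It is the gene of the catalytic γ isoform, best known from testis, and its difference did not pass the test across all genes. Its level was 38.6, 56.0, 36.5, 33.3 and 50.6 CPM in untreated libraries 1 to 5. In aLAG3 libraries 6 to 11 it was 64.5, 60.4, 80.2, 70.8, 81.2 and 45.4 CPM. The groups overlapped through aLAG3 library 11, which lay below untreated libraries 2 and 5, and the other 5 aLAG3 libraries lay above every untreated library. The group means were 43.0 ± 9.80 CPM (SD, n = 5) in the untreated and 67.1 ± 13.5 CPM (SD, n = 6) in the aLAG3 group, on 13 to 47 and 18 to 110 counts in a library. The log2 fold change, aLAG3 over untreated, was 0.67 ± 0.18 (standard error), with an unadjusted p of 0.00074 that ranked 4 among 6949 genes in edgeR's quasi-likelihood test and an adjusted p of 0.999. No gene passed an adjusted p of 0.05 in that test (0% of 6949), 259 genes (3.73%) had an unadjusted p under 0.05, with aLAG3 higher in 121 (1.74%), the direction of Ppp3cc, and lower in 138 (1.99%). Since an unadjusted p of this contrast chose the gene set, nothing is read from that rank. By the study's likelihood ratio test, also in edgeR, 0 genes were called, the adjusted p of Ppp3cc was 0.425 and 307 genes had an unadjusted p under 0.05, against 163 in DESeq2.

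With the primer barcode taken into account, the log2 fold change of Ppp3cc in edgeR was 0.67 within barcode 9 and 0.74 with the barcode as a covariate. These fits reuse libraries of the contrast that chose the gene set, and barcode 10 marked no aLAG3 library. The part of the barcode or of the index label in the titles was therefore not tested. Within barcode 9, which marks the deeper libraries and both groups evenly, Ppp3cc lay at 36.5 to 50.6 CPM in the 3 untreated and at 60.4 to 70.8 CPM in the 3 aLAG3 libraries, with no overlap. With 3 libraries against 3, 362 of 6949 genes (5.21%) were as cleanly separated with aLAG3 higher, and 709 genes (10.2%) in either direction. Barcode 8 held a single untreated library, with 33.3 CPM, beside aLAG3 libraries at 45.4 to 81.2 CPM. In bulk samples, fewer cells of a type and less RNA per cell cannot be told apart. Among the myeloid markers, Cd68 was at 11.2 ± 2.57 CPM (SD, n = 5) in the untreated and 24.4 ± 13.5 CPM (SD, n = 6) in the aLAG3 libraries, and Lyz2 at 6.02 ± 5.28 and 14.7 ± 8.92 CPM. Neither passed the filter, the groups overlapped for both, and their part in the difference of Ppp3cc was not tested. The myeloid marker with the most reads in the untreated libraries, Fcer1g, was at 29.6 ± 18.5 and 24.2 ± 8.50 CPM.

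Ppp3ca, the gene of the α isoform and the main form in brain, was low throughout. It lay at 24.6, 16.5, 18.7, 30.7 and 16.9 CPM in the untreated and at 30.4, 19.2, 30.7, 22.3, 30.4 and 17.6 CPM in the aLAG3 libraries. The groups covered nearly the same range, and the log2 fold change was 0.17 ± 0.24 (edgeR adjusted p = 0.999).

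Ppp3cb, the gene of the β isoform and the form known to matter most for T cell development, lay at 31.2, 39.6, 30.3, 28.2 and 39.4 CPM in the untreated libraries. In the aLAG3 libraries it lay at 40.8, 19.8, 49.5, 32.3, 33.8 and 22.7 CPM. The aLAG3 libraries were spread on both sides of the untreated ones, and the log2 fold change was -0.055 ± 0.23 (edgeR adjusted p = 0.999).

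Counted within the catalytic subunits alone, which sets library depth aside, Ppp3cc took 43.4% ± 5.46 of the reads in the untreated libraries (SD, n = 5, 36.1% to 50%) and 53.9% ± 4.77 in the aLAG3 libraries (SD, n = 6, 47.6% to 60.8%). Ppp3cb took 34.2% ± 2.46 and 26.1% ± 4.14, and Ppp3ca 22.4% ± 7.69 and 20.0% ± 1.6. Each share rested on 34 to 181 reads, and the exact Clopper-Pearson 95% interval of the Ppp3cc share ran from 39.1% to 56.1% in aLAG3 library 6 and from 53.3% to 67.9% in aLAG3 library 7. In untreated libraries 1 and 3 it ended at 50.4% and 53.2%, below that of aLAG3 library 7. Every other pair of an aLAG3 and an untreated library had overlapping intervals. The intervals cover the counting of reads within a library and not the spread between mice. Since Ppp3cc was chosen by this contrast, they are no test of the groups.

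**Figure D1:**
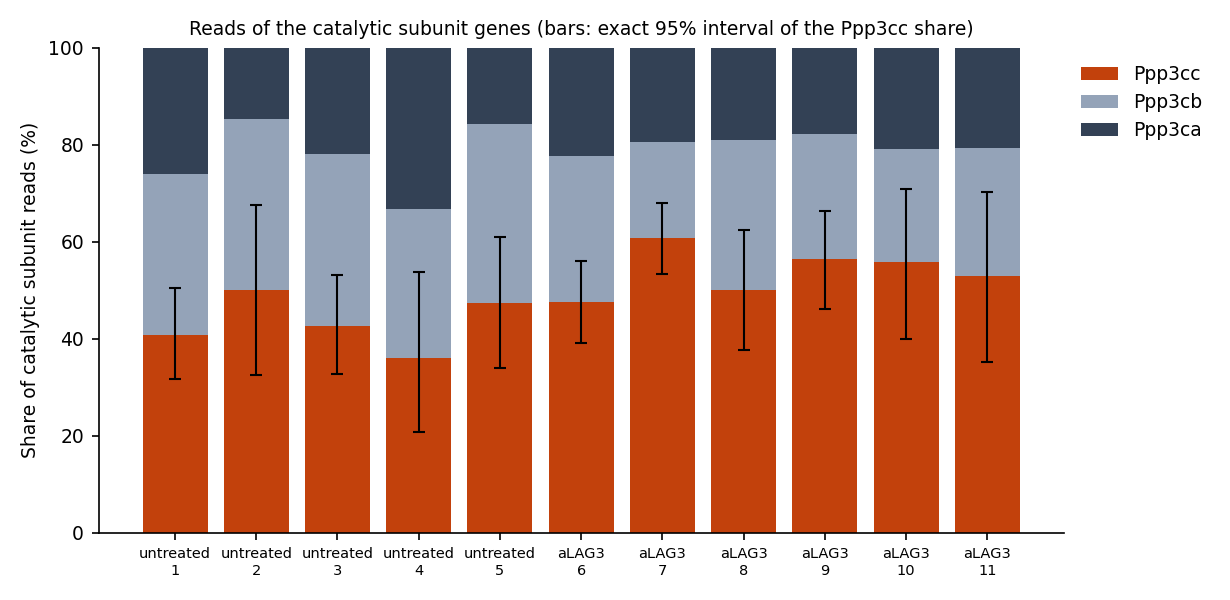
Share of the reads of the catalytic subunit genes (vertical axis, percent) that fell on Ppp3cc, Ppp3cb and Ppp3ca in each of the 11 libraries, with the exact 95% interval of the Ppp3cc share as bars. The Ppp3cc share lay between 36.1% and 50% in the untreated and between 47.6% and 60.8% in the aLAG3 libraries, with wide intervals in the shallow libraries.

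Ppp3r1, the gene of the regulatory subunit calcineurin B that every catalytic subunit needs in T cells, was spread widely within both groups. It lay at 87.9, 125, 72.1, 53.8 and 61.9 CPM in the untreated and at 82.6, 98.3, 73.1, 79.5, 115 and 88.2 CPM in the aLAG3 libraries. The highest and the lowest library were both untreated, and the log2 fold change was 0.18 ± 0.16 (edgeR adjusted p = 0.999). Wdr92 is annotated over part of the gene on the same strand, and 13% of the distinct stretches of 50 bases in Ppp3r1 transcripts also occur in transcripts of Wdr92, so some reads of the pair could have been counted on either gene. Wdr92 itself had 6 to 83 counts in a library. Ppp3cc shared 1.51% of its stretches, mainly with Gm49417, an antisense transcript with 0 or 1 count in a library.

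Nfatc1, the gene of an NFAT factor whose short form accumulates in stimulated T cells, had the highest CPM of the 10 genes. It lay at 145, 122, 166, 97.3 and 144 CPM in the untreated and at 138, 139, 191, 137, 101.4 and 131 CPM in the aLAG3 libraries. The groups overlapped almost fully and the log2 fold change was 0.0063 ± 0.14 (edgeR adjusted p = 0.999). Within primer barcode 9 the order was the other way round from that of Ppp3cc, with a mean of 152 CPM in the untreated and 138 CPM in the aLAG3 libraries and no overlap. Nfatc1 and Ppp3cc were the 2 genes of the 7 tested that separated within that barcode, beside the 10.2% of all genes tested, and 0 of the 10 were separated over all libraries, where 33 genes (0.475%) were, 15 of them (0.216%) with aLAG3 higher.

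Nfatc3, the gene of an NFAT factor present in resting T cells, lay at 101.0, 89.0, 111, 84.5 and 93.8 CPM in the untreated libraries. In the aLAG3 libraries it lay at 88.3, 103, 137, 84.4, 98.1 and 88.2 CPM. Apart from aLAG3 library 8, at 137 CPM, the groups covered the same range, and the log2 fold change was 0.0042 ± 0.14 (edgeR adjusted p = 0.999).

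Nfatc2, the gene of the NFAT factor best known from resting T cells and from exhaustion, was low. It had 2 to 17 counts in an untreated and 4 to 18 counts in an aLAG3 library and did not pass the filter on low counts. Its level was 6.59 to 17.9 CPM in the untreated (median 12.5) and 9.89 to 18.6 CPM in the aLAG3 libraries (median 12.7), and no fold change was fitted with the filter. Without the filter the log2 fold change was 0.063 ± 0.37 (edgeR adjusted p = 0.964). Of the reads on the 3 NFAT genes, Nfatc1 took 55.2% ± 3.63 (SD, n = 11), Nfatc3 39.6% ± 2.91 and Nfatc2 5.19% ± 1.98. The Nfatc1 share was 55.3% ± 3.87 in the untreated and 55.0% ± 3.78 in the aLAG3 libraries, a difference far smaller than the spread within either group.

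Rcan1, whose promoters are printed above, was found in 4 of 11 libraries. It had 1 count in untreated library 4, 2 counts in aLAG3 libraries 6 and 7, 1 count in aLAG3 library 9 and 0 counts in the other libraries, all at or under the floor, so no fold is given. Within primer barcode 9 its reads were found in the 3 aLAG3 libraries and in 0 of the 3 untreated ones, on these 1 or 2 counts. Rcan3, a gene of the same inhibitor family, had 8, 3, 13, 2 and 2 counts in the untreated libraries and 16, 14, 8, 8, 1 and 1 counts in the aLAG3 libraries. In 3 untreated and 2 aLAG3 libraries it was thus at or under the floor, and in the others it reached 11.6 CPM in the untreated and 18.9 CPM in the aLAG3 group. The gene did not pass the filter, and without it, on counts this low, the log2 fold change was 0.39 ± 0.43 (edgeR adjusted p = 0.805).

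Cabin1 encodes a large nuclear protein that binds calcineurin and represses the transcription factor MEF2. It lay at 47.6, 46.1, 35.6, 43.5 and 50.6 CPM in the untreated and at 48.4, 45.0, 47.2, 53.4, 81.2 and 45.4 CPM in the aLAG3 libraries. aLAG3 library 10 stood above all others, on 24 counts, and the rest of the groups overlapped. The log2 fold change was 0.21 ± 0.18 (edgeR adjusted p = 0.999).

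**Figure D2:**
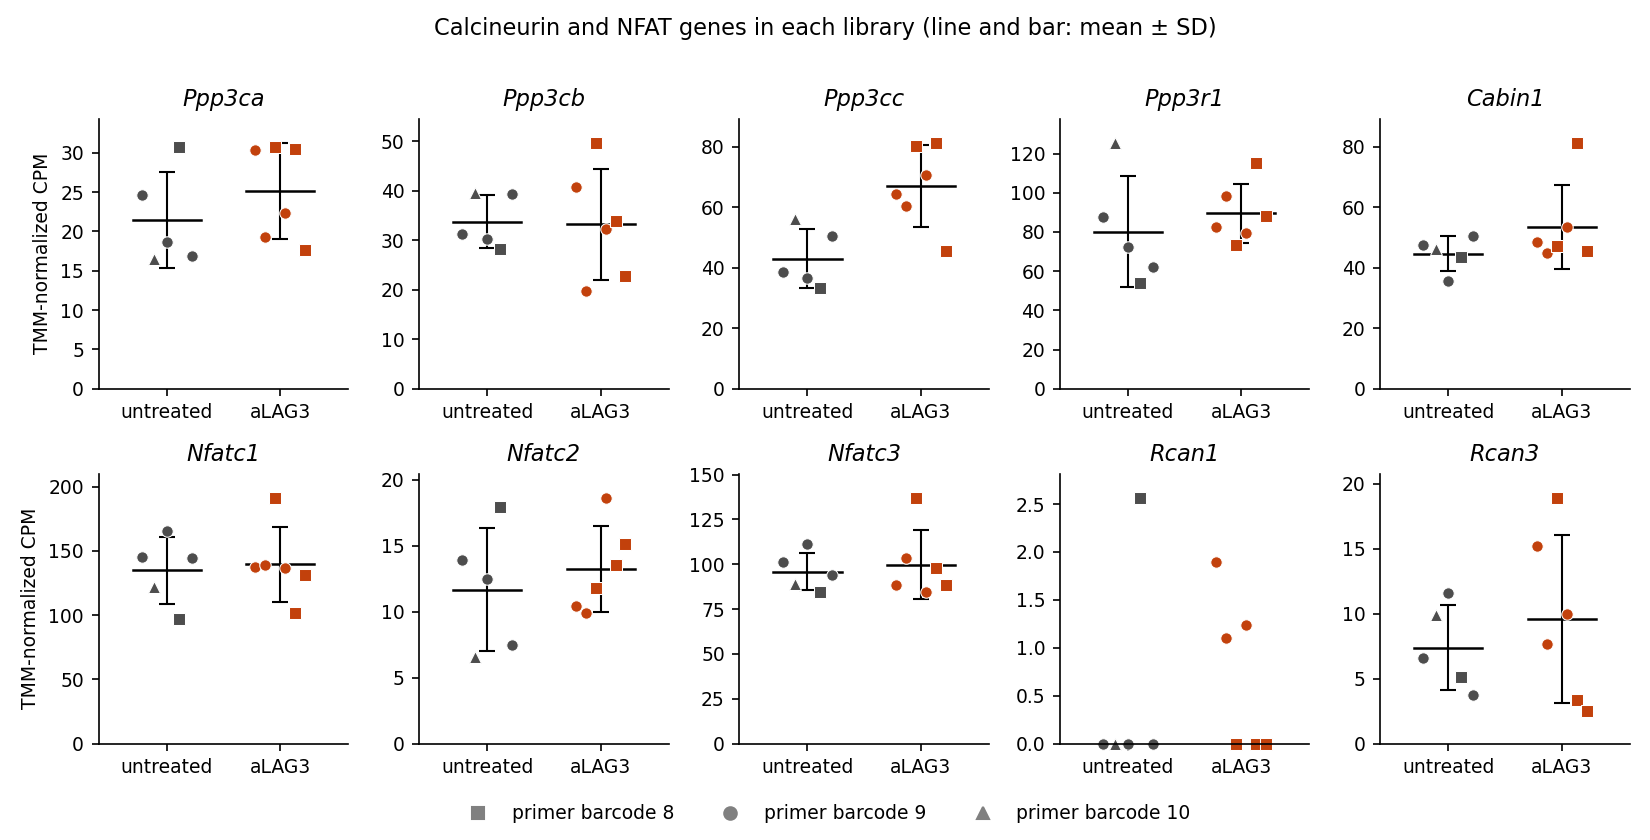
TMM-normalized CPM (vertical axes, from 0) of each of the 10 genes in the 5 untreated and 6 aLAG3 libraries, with the primer barcode as the shape of the point and the group mean ± SD as line and bar, which are left out for Rcan1 with its 0 to 2 counts. Ppp3cc shows the clearest offset between the groups, 33.3 to 56.0 against 45.4 to 81.2 CPM, and the ranges of every gene overlap.

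As a list, 7 of the 10 genes passed the filter and none was called, and 6 of these 7 had a log2 fold change above 0 with a median of 0.17. Over all 6949 genes tested, 51.1% had one above 0 and the median was 0.0045. Apart from Ppp3cc, each lay within 2 standard errors of 0, and the count includes the gene that drew attention to the list. It also includes Nfatc1 and Nfatc3 at 0.0063 and 0.0042, and both were at -0.15 within primer barcode 9.

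**Figure D3:**
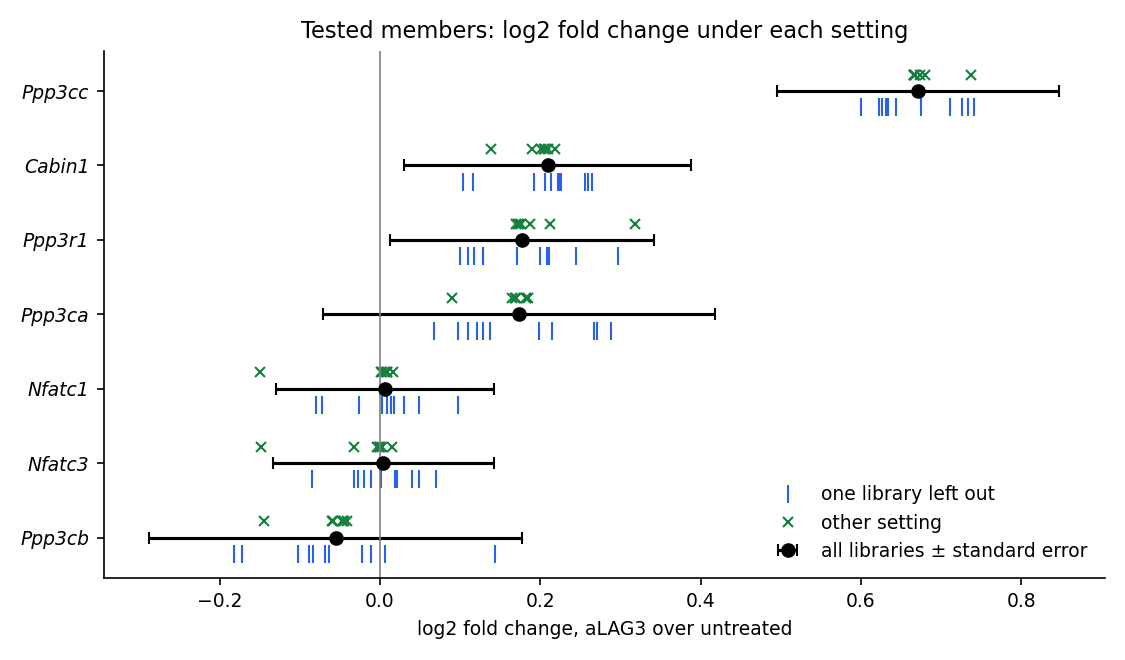
Log2 fold change, aLAG3 over untreated (horizontal axis), of the 7 genes tested, with the value over all libraries ± standard error in black, values with 1 library left out as ticks and values under the other settings as crosses. Ppp3cc stayed between 0.60 and 0.74 under all of them, whereas the values of Nfatc1, Nfatc3 and Ppp3cb lay on both sides of 0.

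The order of the levels can be compared within a library. The 11 libraries hold both groups, and Ppp3cc was chosen for a difference between them. Its place in the order thus draws in part on the values that chose it. Divided by the summed exon length of each gene in GENCODE M21, levels in CPM per kilobase had medians over the 11 libraries of 25.6 for Ppp3r1, 18.8 for Ppp3cc, 18.4 for Nfatc1, 8.00 for Nfatc3, 3.88 for Cabin1, 3.66 for Ppp3cb, 2.24 for Ppp3ca, 1.5 for Rcan3, 1.18 for Nfatc2 and 0 for Rcan1. Ppp3cc was thus the catalytic gene with the highest level, and Ppp3r1 lay above it in 10 of 11 libraries. Some neighbours in this order did not separate: Ppp3cc was above Nfatc1 in 6 of 11 libraries, Cabin1 above Ppp3cb in 6, Ppp3ca above Rcan3 in 8 and Rcan3 above Nfatc2 in 7. The places of Rcan3 and Nfatc2 are the least certain, since Rcan3 was at or under 3 counts in 5 of 11 libraries and Nfatc2 in 1. With the longest transcript as the length, the order of some neighbours turned: Ppp3cc was above Nfatc1 in 1 of 11 libraries, with medians of 22.5 and 28.7, Cabin1 above Ppp3cb in 3 of 11, with medians of 6.36 and 8.43, and Rcan3 above Nfatc2 in 5 of 11, with medians of 1.5 and 1.82.

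Among the catalytic genes, the log2 ratio of the level per kilobase of Ppp3cc to that of Ppp3cb was 2.29 ± 0.46 (SD, n = 11) and to that of Ppp3ca 2.98 ± 0.50, and that of Ppp3cb to Ppp3ca was 0.69 ± 0.44. Among the NFAT genes, it was 1.13 ± 0.19 for Nfatc1 over Nfatc3, 4.00 ± 0.60 for Nfatc1 over Nfatc2 and 2.87 ± 0.54 for Nfatc3 over Nfatc2. Every ratio had the same direction in 11 of 11 libraries (exact two-sided sign-flip permutation test, p = 0.000977 for each of the 6 pairs, adjusted p = 0.000977, the smallest that 11 libraries can give). The size of the ratios depended on the length used, which counts alone cannot settle since they do not show where along a transcript the reads lay. With the longest transcript in place of the summed exons, Ppp3cc over Ppp3cb was 1.35 ± 0.46, and with no division by length 0.73 ± 0.46, above 0 in 11 of 11 libraries both times. Without division by length Ppp3cc over Ppp3ca was 1.24 ± 0.50, Ppp3cb over Ppp3ca 0.51 ± 0.44, above 0 in 10 of 11, and Nfatc1 over Nfatc3 0.48 ± 0.19. By the methods, the first PCR added the primer barcode at the template-switching end of the cDNA, before fragmentation. Only fragments that keep this end carry the barcode, and for reads of transcript ends division by length is not apt. The levels per kilobase and the ratios built on them are therefore less certain than the CPM. In CPM alone the means over the 11 libraries were highest for Nfatc1 at 137, followed by Nfatc3 at 98.1, Ppp3r1 at 85.2 and Ppp3cc at 56.1.

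The ratio of Ppp3cc to Ppp3cb also differed in size between the groups, at 1.90 ± 0.10 (SD, n = 5, 1.80 to 2.06) in the untreated and 2.62 ± 0.36 (SD, n = 6, 2.22 to 3.17) in the aLAG3 libraries, on the log2 scale of levels per kilobase. This comparison was picked after its values were seen and shares its numbers with the choice of Ppp3cc, so it was not tested. For Nfatc1 over Nfatc3 the values were 1.13 ± 0.16 and 1.13 ± 0.23.

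**Figure D4:**
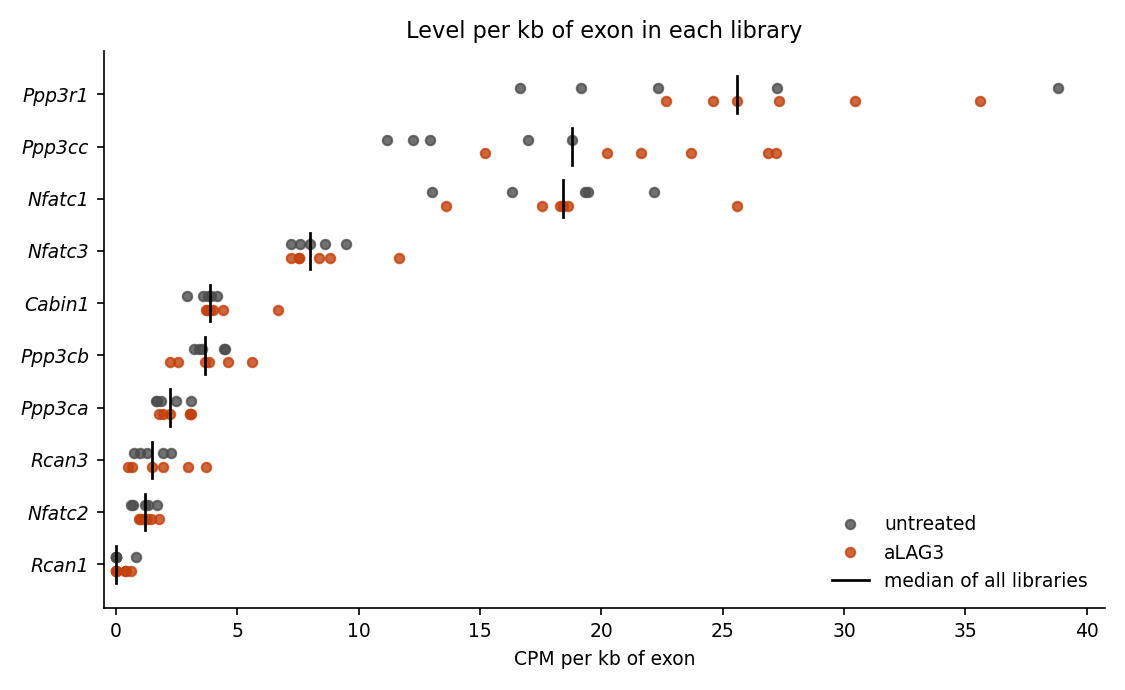
CPM per kilobase of exon (horizontal axis) of the 10 genes in each library, with the untreated libraries in grey, the aLAG3 libraries in orange and the median of all libraries as a line. On this scale Ppp3r1, Ppp3cc and Nfatc1 form the top of the order with medians of 25.6, 18.8 and 18.4, and Rcan1 lies at 0. In CPM without division by length, Nfatc1 and Nfatc3 had the highest means, 137 and 98.1, and Ppp3cc had 56.1.

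The genome positions, in GRCm38 as GENCODE M21 annotates them, are given for the genes on which the comparisons turned. Ppp3cc spans chr14:70217865-70289471 on the minus strand with 3 annotated transcripts, and Ppp3cb chr14:20499364-20546573 on the minus strand with 9. Ppp3ca spans chr3:136670124-136937727 on the plus strand with 8 transcripts, and Ppp3r1 chr11:17159263-17200375 on the plus strand with 2. All are protein-coding genes, and counts were given per symbol, so the isoforms of a gene were not told apart.

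Of the related genes outside the 10, only Nfat5 was well read. Nfat5, the osmotic stress factor of the family, which lacks the part that binds calcineurin, lay at 149 ± 25.4 CPM (SD, n = 5) in the untreated and 135 ± 44.6 CPM (SD, n = 6) in the aLAG3 libraries, with a log2 fold change of -0.19 ± 0.15 (edgeR adjusted p = 0.999). Without aLAG3 library 10, at 223 CPM, it was -0.32 ± 0.12 and without untreated library 4 it was -0.12 ± 0.15 (edgeR adjusted p = 0.9997 and 0.99999). Within primer barcode 9 the untreated libraries lay at 145 to 149 and the aLAG3 libraries at 117 to 132 CPM, with no overlap, as for 10.2% of all genes tested. Nfatc4 had 0 to 5 counts in a library, Rcan2 0 or 1, and Ppp3r2, the testis form of the regulatory subunit, 1 count in all.

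Upstream of calcineurin, 11 of the 12 listed genes of calcium release and entry were among the deposited symbols, and 10 passed the filter. None was called, 3 had a log2 fold change above 0 and 7 below, and the median was -0.096. Stim2, a sensor of calcium in the endoplasmic reticulum, had the smallest unadjusted p of the list, with 28 ± 9.66 CPM in the untreated and 16.1 ± 6.25 CPM in the aLAG3 libraries and a log2 fold change of -0.82 ± 0.28. Its unadjusted p was 0.0059 and its adjusted p 0.999 in edgeR's quasi-likelihood test, and the groups overlapped. Orai3, a channel subunit, followed with -0.48 ± 0.29 and Stim1, the main sensor in T cells, with -0.18 ± 0.16. No calmodulin gene was called, and the log2 fold changes were 0.066 ± 0.10 for Calm2 and 0.032 ± 0.093 for Calm3.

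Of the 7 listed genes of calcineurin binding proteins 4 passed the filter, 2 above and 2 below 0, with a median of -0.0057. They included the targets of the immunosuppressant drugs, Ppia, which encodes cyclophilin A, at 0.059 ± 0.063, and Fkbp1a, which encodes the tacrolimus binding protein, at -0.054 ± 0.087. Cib1, which encodes a calcium-binding protein that anchors calcineurin, was at -0.13 ± 0.16. Of the 9 listed kinases that put phosphates back on NFAT 6 passed, 4 above and 2 below 0, with a median of 0.066. The smallest unadjusted p values were those of Mapk14, which encodes the kinase p38α, at 0.29 ± 0.21, Dyrk1a at -0.31 ± 0.29 and the casein kinase gene Csnk1d at -0.15 ± 0.16. None of these genes was called.

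Of the 8 listed NFAT partners and other calcineurin substrates 5 passed, 1 above and 4 below 0, with a median of -0.055 and no call. Mef2a, a transcription factor that calcineurin activates, was at -0.22 ± 0.18, Crtc2, a coactivator released by calcineurin, at 0.19 ± 0.17, and Nfatc2ip, which encodes a protein that binds NFAT, at -0.22 ± 0.29.

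Downstream, 19 of the 26 listed NFAT target genes passed, 11 above and 8 below 0, with a median of 0.014 and no call. Dgkz, which encodes a diacylglycerol kinase that damps T cell receptor signalling, was at 80.8 ± 10.6 CPM in the untreated and 60.5 ± 10.8 CPM in the aLAG3 libraries, with a log2 fold change of -0.41 ± 0.15. Tox, the transcription factor that sets up exhaustion, was at 135 ± 27.7 and 173 ± 25.0 CPM with 0.32 ± 0.13, and Pdcd1, which encodes the PD-1 used in the gate, at 716 ± 71.8 and 605 ± 101.2 CPM with -0.24 ± 0.097. Their unadjusted p values in edgeR were 0.0094, 0.018 and 0.021 and their adjusted p was 0.999, and the groups overlapped for each. Lag3, which encodes the receptor that the antibody binds, lay at 499 ± 31.7 and 490 ± 59.5 CPM.

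**Figure D5:**
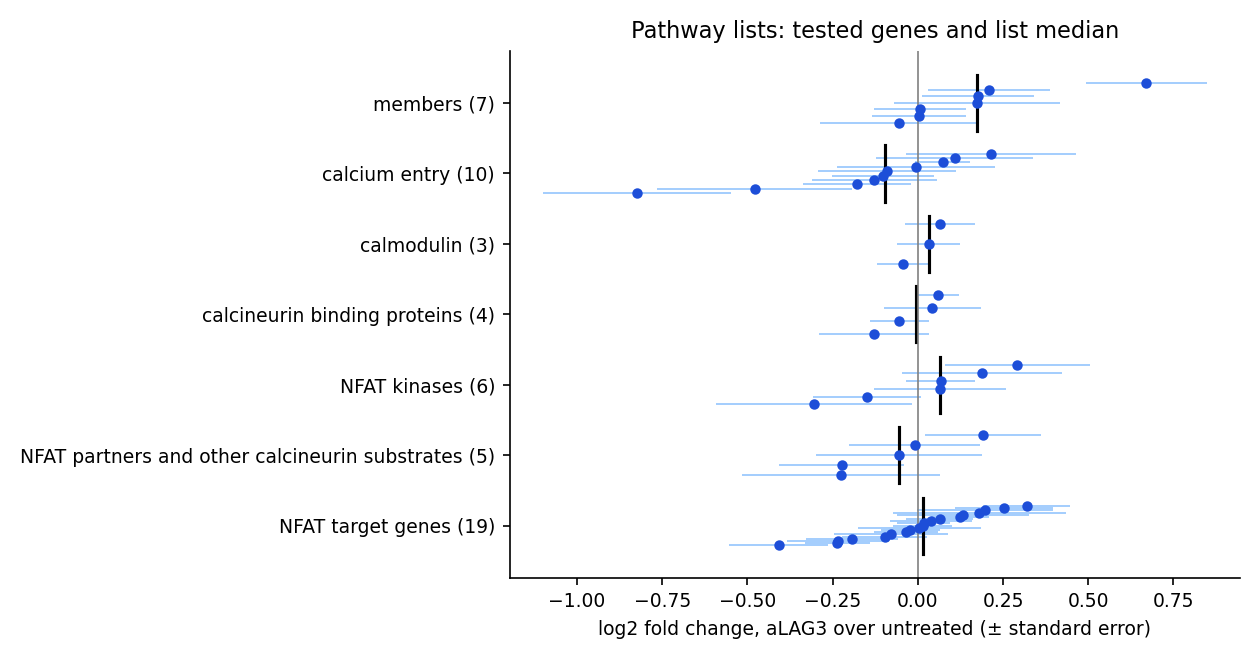
Log2 fold change, aLAG3 over untreated, with its standard error (horizontal axis) for every gene tested in the list described here and in each pathway list, with the list median as a black line and the number of genes tested beside each name. The medians of the pathway lists lie between -0.096 and 0.066, and Ppp3cc at 0.67 and Stim2 at -0.82 are the outermost points.

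The genes whose pattern over the 11 libraries was most like that of Ppp3cc, by Pearson's r of log2 CPM among the 6949 genes tested, were Lsm7 (r = 0.93, Spearman's rho = 0.90), Gstp1 (r = 0.87, rho = 0.90) and Eef1a1-ps1 (r = 0.87, rho = 0.85). Lsm7 encodes a part of the LSm ring in RNA splicing and decay and Gstp1 a glutathione transferase, while Eef1a1-ps1 is a pseudogene whose reads may belong to its parent gene. The points share depth and group, and Lsm7 had 52.1 ± 10.2 CPM in the untreated and 66.5 ± 8.36 CPM in the aLAG3 libraries.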

How the data were processed

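Reads were trimmed with Cutadapt by the authors, aligned with Bowtie2 to GRCm38 reference RNA and counted per gene. The submitters' processing notes give cutadapt 4.1 and Bowtie2 2.4.5. The deposited values are raw counts per gene symbol without normalization, and the sample of each column was found through its title. The use of strand and the treatment of reads with several matches are not given in the sources used here.

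Genes were kept with filterByExpr (10 counts at the median depth, 17.7 CPM, in at least 5 libraries), which left 6949, scaled by TMM, with factors from 0.985 to 1.01, and tested with edgeR 4.0.16 by the quasi-likelihood test in R 4.3.3, Benjamini-Hochberg adjustment over all genes and a threshold of 0.05. Standard errors were derived from the fold change and the square root of F. DESeq2 1.42.0 was an alternative. The ratios of levels were tested in Python 3.11.15 with the exact two-sided sign-flip permutation test, adjusted over the 6 pairs. The scripts were tested on simulated data. Of the symbols, 96.3% were found in GENCODE M21. Of the 10 genes, Cabin1, Nfatc2, Nfatc3, Ppp3cb, Ppp3r1, Rcan1 and Rcan3 had entries in the RefSeq promoter table. The mice are the replicates, and no pair of libraries agreed within sampling noise.

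The 10 genes and the gene lists were chosen with earlier results of these data known. The text names all 10, their other family genes, in each pathway list up to 3 genes with the smallest unadjusted p, and the 3 genes most correlated with Ppp3cc. Of the genes under this rule, 1 is not reported here. Lag3, Slamf6, Havcr2, Cd68, Lyz2, Fcer1g, Klra8, Alas2, Pecam1, Wdr92 and Gm49417 are named outside this rule. The alternatives cover the test, the scaling, the filter, the primer barcode, the length and each library left out.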

Additional observations from a re-analysis of the deposited data

Results flagged for a closer look

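In 3 of 20 sets of values, each a gene in a group, the highest library stood so far from the others that its gap to the next passed Dixon's 95% limit, which chance does in about 1 in 20 sets. Nfatc3 was at 137 CPM in aLAG3 library 8, on 58 counts, against 84.4 to 103 CPM in the other aLAG3 libraries. Cabin1 was at 81.2 CPM in aLAG3 library 10, on 24 counts, against 45.0 to 53.4 CPM. Nfat5 was at 223 CPM in the same library, on 66 counts, against 99.1 to 132 CPM. Both libraries were shallow ones with primer barcode 8, and the part of depth and barcode in these values was not tested.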

How the results depend on the processing

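Under the 7 alternatives of test, scaling, filter and barcode, and with each library left out, none of the 10 genes was called, and the values of Ppp3ca, Ppp3cc, Ppp3r1 and Cabin1 kept their direction. The log2 fold change of Ppp3cc was 0.67 to 0.74 under the alternatives and 0.60 to 0.74 with a library left out, and its lowest adjusted p was 0.401. With a library left out, the value of Ppp3ca was 0.067 (without aLAG3 6) to 0.29 (without aLAG3 7), that of Ppp3r1 0.0997 (without untreated 4) to 0.30 (without untreated 2) and that of Cabin1 0.10 (without untreated 3) to 0.27, and 0.12 without aLAG3 10. With barcode as a covariate Ppp3ca was at 0.090 and Ppp3r1 at 0.32, and Cabin1 within barcode 9 at 0.14. Over all genes, 0 were called at an adjusted p of 0.05, 3 without the filter on low counts, where 24024 genes were tested, and 0 to 2 with a library left out, the 2 without aLAG3 replicate 7. The value of Nfatc1 was -0.15 within primer barcode 9 and -0.080 to 0.098 with a library left out, where it turned negative without untreated 2, untreated 4 or aLAG3 8. That of Ppp3cb was -0.18 to 0.14 with a library left out and turned positive without untreated 5 or aLAG3 7. The value of Nfatc3 was -0.0038 in the likelihood ratio test, -0.00068 with relative log expression factors, -0.033 with barcode as a covariate, -0.15 within barcode 9 and -0.084 to 0.070 with a library left out. It turned negative without untreated 2, 4 or 5 or aLAG3 7 or 8, and the cause was not tested. In the untreated libraries alone, 5 libraries cannot reach an exact p below 0.0625, and the log2 ratios of levels were 1.90 for Ppp3cc over Ppp3cb, 2.76 for Ppp3cc over Ppp3ca, 0.86 for Ppp3cb over Ppp3ca, 1.13 for Nfatc1 over Nfatc3, 4.11 for Nfatc1 over Nfatc2 and 2.98 for Nfatc3 over Nfatc2. Over all 11 libraries, each mean ratio kept its direction in the other length settings and with each library left out. No paired analysis was possible because the groups share no library number. The index label in the titles is shared between the groups only by untreated 2, untreated 3 and aLAG3 10. Nfatc2, Rcan1 and Rcan3 were tested only without the filter, and Nfatc2 and Rcan3 also within barcode 9, and none was called.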
